A study of Ovis aries with 9 samples.

Results

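Primary rumen epithelial (RE) cells of newborn Hu lambs were cultured untreated (Con group) or for 24 h with GA-017 at 10 μM (GA group) or verteporfin at 5 μM (VP group), and 197 genes raised by GA-017 and lowered by verteporfin were picked out. Each group had 3 wells, and RNA-seq counts were available for 25962 genes in each of the 9 libraries. All groups shared one culture medium, with serum, epidermal growth factor, hydrocortisone, insulin, transferrin, cholera toxin and triiodothyronine, and the labels give the genotype as WT. The compounds were dissolved in DMSO, and whether the Con wells received it is not given in the sources used here, so effects of compound and solvent cannot be told apart in the contrasts with Con, whereas GA and VP wells both received it. The wells were cultures of isolated cells, and the study's methods do not state how many lambs supplied them. Whether differences between lambs are part of the spread between wells is therefore not known. The p-values measure only the spread between wells, which may be technical.

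Counts were scaled to a library total of 1000000 (CPM). Of the 11709 genes with a mean of at least 1 CPM in any group, a gene was chosen when L, the log2 ratio of its mean CPM plus 0.1 in the treated group to that in Con, was at least 0.5 in GA and at most -0.5 in VP. In addition, every GA library had to lie above every Con library, and every Con library above every VP library. The 197 genes, 1.68% of those considered, were thus chosen by their values in both contrasts with Con, so the direction and size of their changes are given as a description and were not tested.

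YAP1 and TAZ are transcriptional co-activators that do not bind DNA themselves and act mainly through TEAD transcription factors. The Hippo kinase cascade phosphorylates them and keeps them out of the nucleus, and in stratified epithelia their activity is tied to the proliferation of basal cells. GA-017 is used as an activator of YAP1/TAZ, and verteporfin, a porphyrin photosensitizer, is used as an inhibitor of the transcription they drive with TEADs. Genes that respond to both compounds in opposite directions are therefore the pattern that a pair of activator and inhibitor is used to look for. The counts are listed by Ensembl identifier and are not paired with gene symbols in the sources used here, so known YAP1/TAZ targets, members of the Hippo pathway and markers of basal or other epithelial cells could not be looked up, and the identity of the cells was not checked against markers. For the same reason 4 identifiers are named, and the rest are described as a group.

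Library totals lay between 14458606 and 15814380 counts. Wells of the same group were compared by the chi-square of their counts over its degrees of freedom, which was between 2.87 and 14.1, so no 2 wells were alike within sampling noise. Well 1 of GA stood apart from the others of its group (13.6 and 14.1, against 2.92 between wells 2 and 3). In Con, well 3 was the most distant (10.6 and 7.22, against 4.52), and so it was in VP (8.14 and 7.48, against 2.87).

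Together, the 197 genes held 0.943% ± 0.006 of all counts in Con (SD, n = 3). Their share was 2.14% ± 0.037 in the GA group and 0.441% ± 0.014 in the VP group (SD, n = 3). The single wells had 0.948%, 0.936% and 0.945% without treatment, 2.18%, 2.11% and 2.13% with GA-017, and 0.441%, 0.427% and 0.456% with verteporfin. GA well 1 was the highest of its group. The rule sets the groups apart in every chosen gene, so the distance between these shares follows from the choice and was not tested. In GA, the 10 genes with the most counts carried 50.5% of the counts on the group and 1 gene alone carried 11.3%. Without that gene, Con had 0.912% ± 0.006, GA had 1.90% ± 0.021 and VP had 0.438% ± 0.014 (SD, n = 3). In these bulk libraries, fewer cells of a type and less RNA of a gene per cell cannot be told apart.

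**Figure D1:**
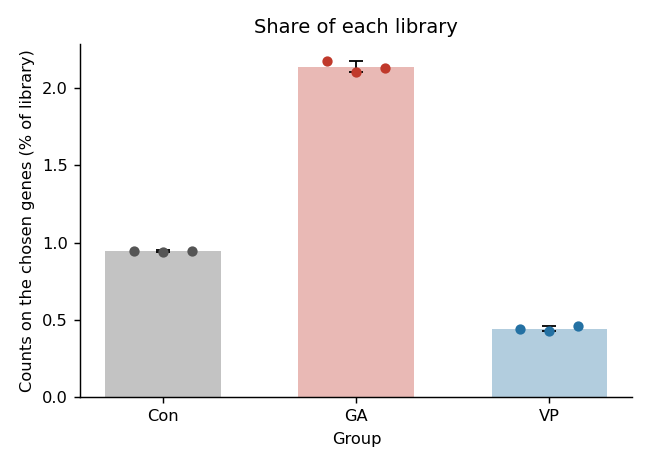
Counts on the 197 chosen genes as a percentage of all counts of each library, by group. Points are wells, bars are group means and error bars are SD (n = 3). The wells sat between 2.11% and 2.18% in GA, between 0.936% and 0.948% in Con and between 0.427% and 0.456% in VP. The order of the groups is built into the choice of the genes.

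The median L was 0.71 in GA, 1.63-fold above Con, and the quartiles were 0.60 and 1.01. In VP, the median L was -1.01, 2.01-fold below Con, and the quartiles were -1.32 and -0.73. Over all 11709 genes considered, the median L was -0.03 in GA and -0.09 in VP. In the single wells, set against the mean of Con, the median over the group was 0.82, 0.70 and 0.71 in GA and -0.99, -1.05 and -0.90 in VP. GA well 1 was again the highest, and without it the median L in GA was 0.70. From VP to GA, the median span was 1.82 on the log2 scale, or 3.54-fold, and the spans ranged from 1.08 to 6.13.

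In 141 of the 197 genes, the difference from Con was larger in VP than in GA, and in 56 it was larger in GA. This balance depended on the scaling, since it was 109 of 197 with library sizes scaled by TMM, which assumes that most genes do not change, and 109 with DESeq2 size factors. Both scalings moved the median L of all genes in VP to 0.00.

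**Figure D2:**
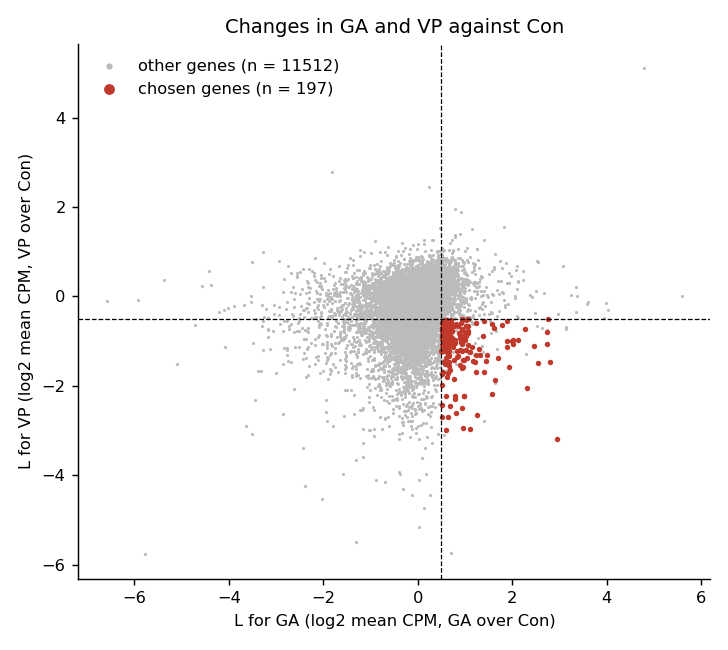
L in GA (horizontal axis) against L in VP (vertical axis), both log2 ratios of mean CPM to Con with a pseudocount of 0.1 CPM, for the 197 chosen genes (red) and the other 11512 genes considered (grey). Dashed lines mark the thresholds of 0.5 and -0.5. The chosen genes lie to the lower right, with 1 gene far from the rest at 2.95 in GA and -3.18 in VP, and grey points in that corner are genes whose libraries overlapped between groups. Both axes share the Con libraries.

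By a 2-fold change (L of at least 1 in size), the group fell into 4 classes. In 29 genes both changes reached 2-fold, with a median L of 1.45 in GA and -1.37 in VP. In 22 genes only the GA difference did, with a median L of 1.39 in GA against -0.72 in VP. In 71 genes only the VP difference did, with a median L of 0.66 in GA against -1.29 in VP. The remaining 75 genes reached 2-fold in neither, with medians of 0.63 and -0.73. The largest class thus held the smaller differences in both directions, and the next was mainly lowered by verteporfin. The classes were formed on library totals, and the 2-fold cut in VP lies at the median L of the group (-1.01). With TMM this median was -0.91, so the numbers in the classes can depend on the scaling.

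The wells of each treatment gave these classes similar medians. For the 29 genes that reached 2-fold in both, the median of the log2 ratio to the Con mean was 1.57, 1.44 and 1.41 in the GA wells and -1.55, -1.48 and -1.25 in the VP wells. For the 71 genes that did so only in VP, it was 0.74, 0.65 and 0.68 in GA and -1.45, -1.48 and -1.16 in VP. VP well 3 lay closest to Con in both classes, and GA well 1 lay farthest from it. A 4-fold change was reached by 12 genes in GA and by 18 in VP, and by 2 genes in both.

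**Figure D3:**
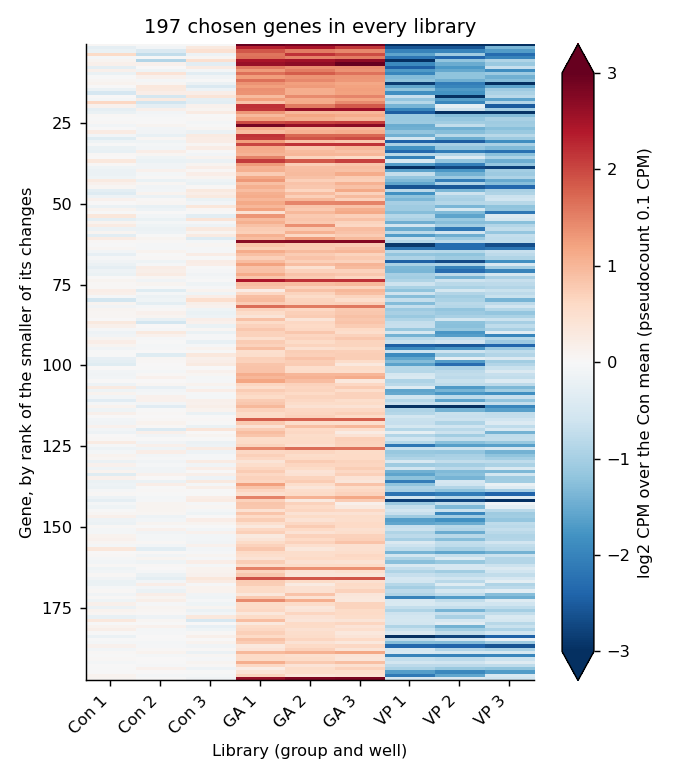
The log2 ratio of CPM to the Con mean (pseudocount 0.1 CPM, colour scale cut at 3 and -3) for each of the 197 chosen genes in each of the 9 libraries. Genes are ordered from top to bottom by the smaller of their changes in GA and VP. Red columns are the 3 GA wells and blue columns the 3 VP wells, and the order is built into the choice of the genes. Strong colours in 1 treatment next to pale colours in the other mark genes moved mainly by 1 compound.

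The 4 identifiers are the genes with the largest L in GA (first and second) and the most negative L in VP among the others. ENSOARG00020008733 led in both treatments. It had 322, 309 and 310 CPM in the Con wells, 2609, 2311 and 2343 CPM in the GA wells, and 34.2, 32.6 and 36.6 CPM in the VP wells. All 3 groups were far apart, as the lowest GA well was 2.84 log2 units above the highest Con well. L was 2.95 in GA and -3.18 in VP, that is 7.72-fold above and 9.07-fold below Con. In edgeR's fit, its log2 fold change was 2.97 (SE 0.06) in GA and -3.14 (SE 0.07) in VP. It had 4482 to 5013 counts in a Con library and 485 to 579 in a VP library, so counting error was small.

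ENSOARG00020009360 had the next largest rise in GA, at a much lower number of counts. It had 26, 25 and 17 counts in the Con wells, 142, 156 and 209 in the GA wells, and 5, 7 and 10 in the VP wells. The GA wells were clearly apart from the Con wells, while the VP wells were within a few counts of each other. Con had 1.49 ± 0.27 CPM, GA had 11.0 ± 2.19 CPM and VP had 0.476 ± 0.154 CPM (SD, n = 3), with an L of 2.80 in GA and -1.47 in VP. With 1 library left out in turn, L ranged from 2.63 to 2.90 in GA and from -1.68 to -1.29 in VP.

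ENSOARG00020006902 was moved mainly by verteporfin. It had 60, 70 and 80 counts in the Con wells, 114, 88 and 122 in the GA wells, and 9, 9 and 5 in the VP wells. Con had 4.65 ± 0.84 CPM, GA had 7.05 ± 1.18 CPM and VP had 0.502 ± 0.161 CPM (SD, n = 3). VP was well below Con, with an L of -2.98, but GA well 2 (5.70 CPM) lay barely above Con well 3 (5.53 CPM). L in GA was 0.59, and it ranged from 0.47 to 0.73 with 1 library left out, so its place in the group rests on a margin smaller than the spread between wells.

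ENSOARG00020007150 fell nearly as far in VP and also rose past 2-fold in GA. It had 17.0, 18.6 and 23.2 CPM in the Con wells, 48.7, 39.0 and 39.0 in the GA wells, and 3.44, 1.35 and 2.47 in the VP wells. The groups were apart on both sides of Con. L was 1.11 in GA and -2.97 in VP, and the edgeR log2 fold changes were 1.13 (SE 0.13) and -2.96 (SE 0.24).

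**Figure D4:**
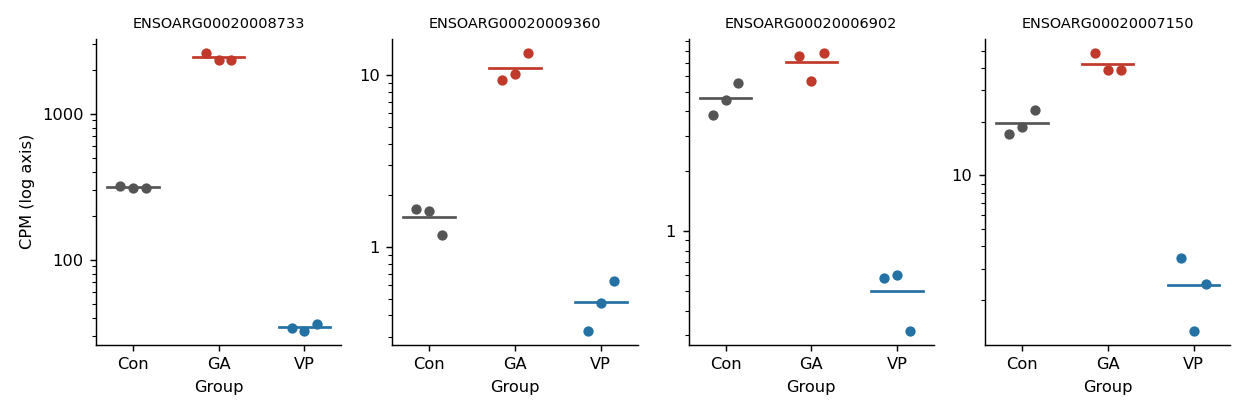
CPM (log axis, one scale for each gene) of the 4 identifiers in the wells of Con, GA and VP. Points are wells and lines are group means (n = 3). ENSOARG00020008733 is apart in all groups, from 34.5 CPM in VP to 2421 CPM in GA, while the GA and Con wells of ENSOARG00020006902 nearly touch.

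The distance between single libraries was often narrow. The lowest GA library lay above the highest Con library by a median of 0.44 on the log2 scale, and the highest VP library lay below the lowest Con library by a median of 0.56 (-0.56 as a log2 ratio). In 56 genes, both distances were over 0.5. In 17 genes, at least one was under 0.1, of which 11 were in GA and 8 in VP, and the closest were 0.01 in GA and 0.03 in VP. The thresholds also cut through a continuous range. On the GA side, the last genes inside had L of 0.501, 0.504 and 0.505, and the first outside had 0.492, 0.491 and 0.480. On the VP side, the last inside had L of -0.500, -0.506 and -0.509, and the first outside had -0.480, -0.478 and -0.478. One of those just inside in VP was strongly raised in GA, with means of 153 CPM in Con, 1029 CPM in GA and 108 CPM in VP.

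A low number of counts limited some of the falls in VP. The mean was under 1 CPM in 23 of the 197 genes in VP, in 8 in Con and in 0 in GA. The 0 in GA is fixed by the rule, since the genes were highest in GA and needed a mean of at least 1 CPM. In 3 genes, every VP library had at most 3 counts, which at the mean depth is 0.196 CPM, and in 10 genes at least 1 VP library did. Without those 3 genes the median L in VP was -0.996, and with all VP counts raised to at least 3 it was -0.99. These limits cover counting error only. A level of 1 CPM was reached in every library of GA by 195 of the genes, of Con by 186 and of VP by 159. Of these, 27 were above this level in Con and GA and not in VP, and 9 only in GA. The number for GA is nearly fixed by the same filter, and the ranking of the groups by the rule.

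The chosen genes were spread over all 4 classes of count level in Con. They were 2.29% of the genes considered with under 2 CPM in Con (21 of 917), 2.08% of those from 2 to 10 CPM (55 of 2647), 1.51% of those from 10 to 50 CPM (71 of 4703) and 1.45% of those with 50 CPM or more (50 of 3442). The median L in GA was 1.24 in the first of these classes and between 0.66 and 0.72 in the others, while in VP it was between -1.14 and -0.89 in all 4. Of the 197 genes, 8 had a mean under 1 CPM in Con, and these passed the filter only through their GA mean. The share and the L in GA of the first class are thus partly set by the filter. Fewer counts also give a wider spread of L, and the part of this in the larger changes of the first class was not tested. The coefficient of variation between wells had a median of 10.0% in Con, 9.10% in GA and 16.2% in VP over the group, where over all genes considered it was 9.14%, 10.6% and 9.63%. The VP wells, in which the group had its fewest counts, thus varied the most.

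As a measure in wells that took no part in the choice, the rule was applied to the wells of 2 replicate numbers and the genes so chosen were then read in the third well of each group. With wells 1 left out, 203 genes were chosen, 154 of them among the 197. In the wells left out, 200 of the 203 (98.5%) were higher in GA than in Con, where 52.4% of all genes were. Lower in VP than in Con were 191 (94.1%), where 56.1% of all genes were. The full order held in 188 (92.6%), where it held in 29.4% of all genes. The direction was thus kept by nearly all of the 203 genes in this trio of wells.

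With wells 2 left out, 232 genes were chosen, 170 of them among the 197. In these wells, 210 of the 232 (90.5%) were higher in GA, where 45.6% of all genes were. Lower in VP were 223 (96.1%), where 57.3% were. The order held in 202 (87.1%), against 19.4% of all genes. With wells 3 left out, 298 genes were chosen, 179 of them among the 197. Of the 298, 249 (83.6%) were higher in GA, where 43.7% of all genes were. Lower in VP were 290 (97.3%), where 55.2% were. The order held in 242 (81.2%), against 15.5% of all genes. The fall in VP was kept by 94.1% or more in each trio, and the rise in GA was kept least in wells 3.

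The size of the changes was kept better in VP than in GA in wells 3. The median L in GA was 0.77 in the wells used for the choice and 0.89 in wells 1, 0.74 and 0.70 in wells 2, and 0.74 and 0.53 in wells 3. In VP, it was -0.95 and -0.92 in wells 1, -0.99 and -1.05 in wells 2, and -0.997 and -0.943 in wells 3. Both thresholds were passed again by 123 of 203 genes (60.6%) in wells 1, by 141 of 232 (60.8%) in wells 2 and by 131 of 298 (44.0%) in wells 3, where 4.53%, 2.45% and 2.00% of all genes passed them. With 1 library of each group these values have no replicate error and no test was made, and both ratios share a Con well.

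**Figure D5:**
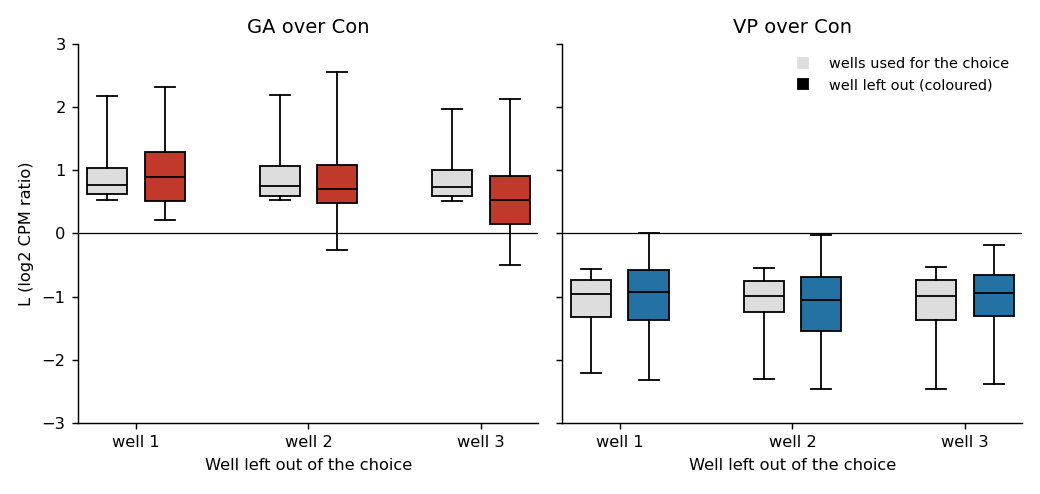
L in GA (left) and VP (right) over Con for the genes chosen without the wells of 1 replicate number (203, 232 and 298 genes). Grey boxes are the wells used for the choice and coloured boxes the wells left out. Boxes span the quartiles, lines are medians and whiskers the 5th to 95th percentile. The coloured boxes stay on the same side of 0 as the grey ones, and in GA the box of wells 3 is the lowest, with a median of 0.53.

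Within a group, the genes did not rank the wells quite as other genes did. GA well 1 was the highest of the 3 GA wells for 114 of the 197 genes (57.9%), where it was the highest for 45.1% of all genes considered. VP well 2 was the lowest of the VP wells for 88 (44.7%), where it was the lowest for 35.4% of all genes, and VP well 3 was the lowest for 42 (21.3%), against 31.9%. In Con, wells 1, 2 and 3 were the highest for 32.5%, 25.9% and 41.6% of the group, against 31.4%, 27.8% and 40.8% of all genes, and the lowest for 39.1%, 31.0% and 29.9% of the group, against 37.5%, 27.9% and 34.6% of all genes. The wells in which the group was farthest from Con were thus GA well 1 and VP well 2. All these wells took part in the choice, and a high GA well or a low VP well helps a gene past the thresholds. The differences from all genes can thus come from the choice itself, which was not tested.

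For each contrast, edgeR's quasi-likelihood test was fitted on the 11403 genes that reached 1 CPM in every library of at least one group, which included 195 of the 197. Genes with FDR < 0.05 and a log2 fold change beyond 1 in size were called. In GA, 56 of the 197 were called higher, where 2.03% of all genes tested were. In VP, 91 were called lower, where 10.3% were, and 29 were called in both, where 0.263% were. Only in GA 27 were called and only in VP 62, and the other 79 include the genes that were not tested. The shares of all genes for these classes are not given here. Among all genes tested, calls lower in VP were more frequent than calls higher in GA (10.3% against 2.03%). At FDR < 0.05 alone, 186 were higher in GA (17.2% of all genes tested), 180 were lower in VP (29.1%) and 176 were both (3.43%). Between GA and VP directly, in a fit of all 9 libraries, 195 were called higher in GA, where 10.3% of all genes were, and 195 again at FDR < 0.05 alone, where 28.0% were. The rule used these same contrasts, so nothing is read from these counts beyond how far the choice and these thresholds overlap.

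The reverse pattern, lowered by GA-017 and raised by verteporfin under the same thresholds, was met by 53 genes (0.453% of those considered). Their median L was -0.88 in GA and 0.62 in VP, so the fall in GA was the larger change there. Without thresholds on L, all GA libraries lay above all Con libraries and these above all VP libraries in 579 genes (4.94%), and the reverse held in 523.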

How the data were processed

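Per the study's methods and labels, reads were filtered (CASAVA 1.8) and mapped with HISAT2 to Oar_rambouillet_v1.0. The authors deposited raw counts of each Ensembl gene for the 9 libraries, with no normalization or pooling. The counting tool is not given in the sources used here. A RefSeq gene table of another assembly matched 0 identifiers, so the gene lists prepared by symbol were not run and no sequence is shown. The genes, lists and tests were chosen with earlier results of these data known. CPM were computed on library totals, and L with a pseudocount of 0.1 CPM. Differential expression was fitted with edgeR 4.0.16 (R 4.3.3, TMM, glmQLFit and glmQLFTest, Benjamini-Hochberg adjustment), with 6 libraries for each treatment against Con. DESeq2, the tool of the study, was an alternative (run here as version 1.42.0). Without symbols, the rule for named genes gave the 2 with the largest L in GA and the 2 others with the most negative L in VP. After subtraction of group means, Con and VP wells of the same number correlated with r of 0.16, 0.11 and 0.37, all above the minimum of 0.1. The numbers were therefore taken as pairing these groups, from the data alone, and no label states it. The main fits, also that of VP against Con, had no block for this pairing, and fits with a block are given below. The rule and test were tested on simulated counts of 11403 genes. Of these, 200 with a mean of at least 2 CPM were changed 2-fold, up in GA and down in VP. All other genes were left unchanged in every group. The rule found 186 of the 200 and 0 others. Genes with smaller changes, lower counts or a change in 1 treatment only were not simulated, so these numbers do not cover them. At FDR < 0.05, edgeR found 191 and 9 others for GA against Con, 174 and 7 others for VP against Con, and 200 and 9 others for GA against VP.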

Additional observations from a re-analysis of the deposited data

How the results depend on the processing

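Of 38 values recomputed under settings that kept all libraries, 30 moved by less than 1.5 times (counts) or by less than the spread between wells (medians). The sign of the medians is fixed by the rule. The number of genes was 29 with a threshold of 1 on L and 579 with no threshold. With TMM it was 189, of which 179 were among the 197, and with a pseudocount of 1 CPM it was 164. The median L in VP was -0.91 with TMM, -0.92 with DESeq2 size factors and -0.80 with a pseudocount of 1 CPM, against -1.01. At FDR < 0.05 alone, 186, 180 and 176 of the genes were called in GA, in VP and in both. For these the change follows from the setting itself. The order held in a mean of 87.0% of the genes chosen without the wells they were read in, and in 81.2% with replicate number 3 left out, where the cause was not tested.

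With each library left out in turn, the number of genes ranged from 187 to 222, the median L from 0.70 to 0.77 in GA and from -1.04 to -0.96 in VP, and the genes called from 52 to 61 in GA, from 82 to 90 in VP, from 24 to 33 in both and from 193 to 195 in GA against VP. Of the 197 genes, 133 were chosen without each of the 9 libraries, and leaving out GA well 1 lost the most (27). The shares of all genes called without a library are not given here.

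In the fits with a replicate block, 54 genes were called in GA, 92 in VP, 30 in both and 195 in GA against VP. DESeq2 called fewer in VP, with 55 in GA, 75 in VP, 23 in both and 195 in GA against VP. One edgeR fit of all 9 libraries called 57 in GA, 76 in VP and 28 in both. With DESeq2 size factors, edgeR called 57 in GA, 81 in VP and 27 in both. The shares of all genes called under these settings are not given here. A change in these counts thus cannot be told apart from a general change in the number of calls. Same-numbered wells of Con and GA correlated with a mean r of -0.13, so they share only a number there.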

Other observations

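A further 382 genes had their libraries in the same order and missed a threshold on L. Of these, 185 were short only in GA, 56 only in VP and 141 in both. Another 61 genes passed both thresholds while libraries of the groups overlapped, between VP and Con only in 32, between GA and Con only in 14 and on both sides in 15. On library totals, the order of single libraries thus failed more often on the VP side, and the thresholds were missed more often on the GA side. With this scaling the median L over all genes was -0.03 in GA and -0.09 in VP. How far the contrast depends on the scaling was not tested.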
